A study of Mus musculus with 2 samples.

Results

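The T cells with NK receptors described here were 205 of the 2478 cells in single-cell RNA libraries from the brains of WT and twitcher (twi) mice, 36 of 1271 WT cells and 169 of 1207 twi cells. They were chosen by their own transcripts. A cell was taken when at least 1 unique molecular identifier (UMI, a tag that marks 1 captured transcript) of Cd3d or Cd3e was present, together with at least 2 UMIs summed over Klra1, Klra5, Klra6, Klra7, Klra9 and Klrb1c. Cells with 2 or more UMIs of Cd79a and Cd79b, cells with 1% or more of their UMIs in S100a8 and S100a9, cells with 2 or more UMIs of Mki67, Top2a and Birc5, and cells with over 15% mitochondrial UMIs were not taken. These chosen genes are therefore given below as a description of the cells and not as a result.

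Both groups were C57Bl/6 mice (C57BL/6J in the study's methods) at postnatal day 21 (p21) with no treatment. WT mice carried galc+/+. Twi mice carried galc-/-, lack the lysosomal enzyme galactosylceramidase, and are a model of globoid cell leukodystrophy (Krabbe disease). The mutation is in every cell of the animal, and 3′ transcript counts of Galc do not check the mutation. Each library held CD45+ cells sorted from the pooled brains of 2 to 3 animals after perfusion and removal of the meninges, so each genotype was 1 sample. No test between genotypes can be had from 1 library each, and intervals below (95%; exact Poisson for UMI sums, Clopper-Pearson for shares, exact conditional for ratios) cover counting error only. Sequencing gave 1278 WT barcodes a sum of 3749714 UMIs (median 2216 each) and 1220 twi barcodes a sum of 4807539 (median 3149.5 each). No barcode sequence occurred in both libraries.

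Ly49 receptors are encoded by the Klra gene family, bind MHC class I molecules and are carried mainly by natural killer (NK) cells. Most of them inhibit the cell, whereas the products of Klra4 (Ly49D) and Klra8 (Ly49H) activate it through the adaptor that Tyrobp encodes. Some T cells carry the same receptors, among them CD8+ T cells that express the transcription factor Helios, the product of Ikzf2, and NKT cells. The 5 Ly49 genes used to choose the cells lie within 487.879 kb of the NK gene complex, all on the minus strand (mm10, chr6:129898996-130386874), and Klrb1c, which encodes NK1.1, lies outside this span at chr6:128778485-128789215. Ikzf2 lies at chr1:69531214-69687245, Xcl1, the gene of a chemokine that draws cross-presenting dendritic cells, at chr1:164931644-164935527, Cd160, the gene of a receptor of cytotoxic lymphocytes, at chr3:96798763-96829351, and Gzmc, a granzyme gene, at chr14:56231441-56234656. All coordinates are those of the GENCODE vM21 annotation.

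The cells took 2.83% (1.99 to 3.90) of the WT library and 14% (12.1 to 16.1) of the twi library, a ratio of 4.94 (3.43 to 7.30). Among cells with Cd3d or Cd3e or with 2 receptor UMIs, their shares were 8.53% and 18.7%, a ratio of 2.20 (1.53 to 3.24). That denominator leaves out most, though not all, of the B cells that made up 43.7% of the WT library. They were compared with NK cells, defined by the same receptor UMIs and none of Cd3d, Cd3e or Cd3g (59 WT and 52 twi cells), and with other T cells, which had Cd3d or Cd3e and no receptor UMI (213 WT and 515 twi cells). Median depth was 3302 UMIs per cell in WT and 4432 in twi T cells with NK receptors, against 2840 and 3148 in NK cells and 2652 and 3366 in other T cells. Since deeper cells reach 2 receptor UMIs more easily, shares of cells with a transcript are also given after each cell was thinned to 1000 UMIs.

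**Figure D1:**
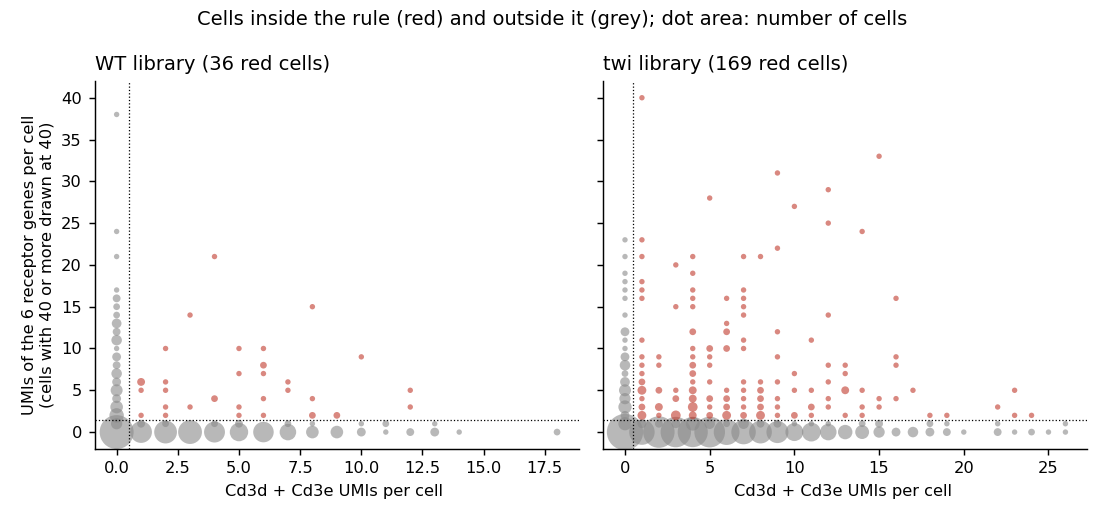
Cd3d and Cd3e UMIs per cell (horizontal) against UMIs of the 6 receptor genes per cell (vertical) in each library, with the area of a dot giving the number of cells at that pair of values and dotted lines giving the limits. Red cells (36 WT, 169 twi) met the rule, and they spread from the limits to over 20 receptor UMIs with no gap that sets them off from the grey cells beside the lines.

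The limit of 2 receptor UMIs cut through a continuum. At exactly 2 receptor UMIs, just inside, there were 8 WT and 35 twi cells, of which 25% and 25.7% had an Ikzf2 UMI. At 1 receptor UMI, just outside, there were 17 WT and 55 twi cells, of which 17.6% and 29.1% had an Ikzf2 UMI, 52.9% and 40% Cd160 and 23.5% and 41.8% Xcl1. On the Cd3 side, 5 WT and 23 twi cells were taken on a single Cd3 UMI, and 4 and 17 of those had a UMI of Ncr1, the gene of the NK cell receptor NKp46. Among cells with 4 or more Cd3 UMIs, Ncr1 was found in 12.5% of 24 WT and 13.3% of 128 twi cells. Cells with 4 or more Cd3 UMIs were thus the larger share, and the cells on the Cd3 limit mostly carried the NK transcript. Since Cd3d and Cd3e chose the cells, this split does not test the label T cell.

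Klra7 (Ly49G) was the Ly49 transcript found in most T cells with NK receptors, in 66.7% of WT and 50.3% of twi cells. Klra9 (Ly49I) was found in 33.3% and 39.1%, Klra6 (Ly49F) in 27.8% and 27.2%, Klra1 (Ly49A) in 16.7% and 28.4%, and Klra5 (Ly49E) in 8.33% and 10.1%. Klrb1c was found in 58.3% of WT and 75.7% of twi cells and was the only transcript of the 6 receptor genes in 1 WT and 33 twi cells. In NK cells Klrb1c reached 93.2% and 96.2%, while Klra6 was found in 3.39% of WT NK cells and in no twi NK cell, and Klra1 in 8.47% and 1.92%. A set of 3 or more of the 5 Ly49 genes was found together in 4 WT cells (11.1%) and 37 twi cells (21.9%), against 0 of 59 and 0 of 52 NK cells, which allows shares of up to 5.08% and 5.77% (3 counts of the total). These genes were among those that chose both populations, and the T cells were deeper, so no difference is read from this count.

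The Ly49 genes outside the rule followed another order. The activating receptor gene Klra4 was found in 8.33% of WT and 6.51% of twi T cells with NK receptors, against 33.9% and 28.8% of NK cells, and Klra8 in 5.56% and 5.33%, against 40.7% and 26.9%. By level, Klra4 was at 87.7 against 668 CPM in twi (ratio 0.131, 0.0966 to 0.177), a ratio that turned to 1.52 among cells with Y-linked transcripts and no Xist, where 14 of 19 UMIs of the T cells lay in 1 cell. The twi cells with an Ncr1 UMI, 37 of 169, held 60 of the 70 Klra4 and 35 of the 45 Klra8 UMIs, and the 64 twi cells with neither Cd8 chain and no Ncr1 and the 22 with Cd8a alone held none of either. In WT all 10 Klra8 UMIs and 6 of 9 Klra4 UMIs lay in the 9 cells with Ncr1. Of these, 9 Klra8 and all 6 Klra4 UMIs lay in 1 cell, which was also 1 of the 3 WT cells with Cd8a alone. A UMI of either gene was present in 11.1% and 10.1% of the T cells and in 52.5% and 46.2% of the NK cells. Klra3 (Ly49C) was found in 13.9% and 11.2% against 39.0% and 36.5%. The Ly49 genes are close copies, and reads of 1 member can be counted for another or dropped. Of the 50-base stretches in the last 500 bases of their transcripts, 49.4% in Klra9 and 31.5% in Klra3 occurred in another family member, against 22.1% in Klra7, 13.1% in Klra8, 6.96% in Klra1, 4.66% in Klra4, 3.10% in Klra6 and 0% in Klra5. Klra9 and Klra3 levels are therefore uncertain.

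**Figure D2:**
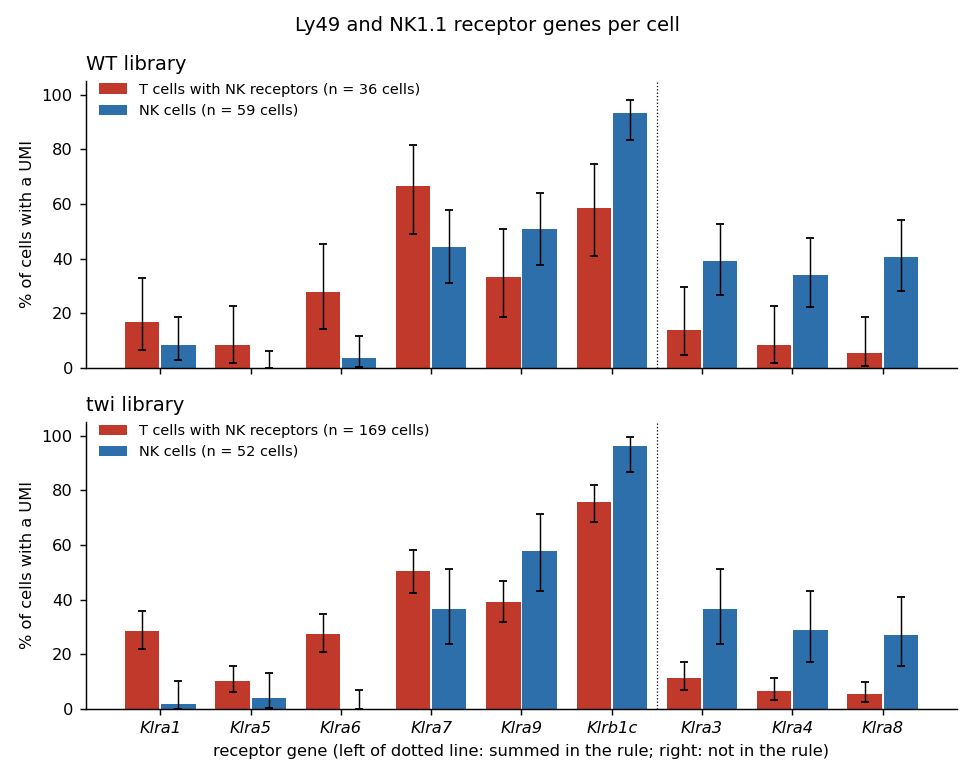
Share of cells with at least 1 UMI of each receptor gene (vertical axis, %) in T cells with NK receptors (red) and NK cells (blue) of the WT (top) and twi (bottom) library, with Clopper-Pearson 95% intervals. Genes left of the dotted line chose the cells of both populations, and right of it the activating receptor genes Klra4 and Klra8 stand at 5.33% to 8.33% of the T cells and 26.9% to 40.7% of the NK cells.

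Ikzf2 was higher in T cells with NK receptors than in either neighbouring population of both libraries. It stood at 452 CPM (counts of the gene per 1000000 UMIs of the population) in WT and 303 CPM in twi T cells with NK receptors, from 58 and 242 UMIs. In other T cells it stood at 159 and 110 CPM, which gave ratios of 2.85 (2.03 to 3.98) in WT and 2.75 (2.28 to 3.33) in twi. NK cells held 144 CPM in WT and 31.8 CPM in twi, ratios of 3.13 (1.93 to 5.23) and 9.53 (4.31 to 26.2). In WT NK cells 13 of the 25 UMIs lay in 1 cell, without which the WT ratio was 6.5 (3.45 to 13.3). An Ikzf2 UMI was found in 47.2% of WT and 46.7% of twi cells, or in 22.9% and 26.5% after thinning. In B cells, which should lack it and so show the level of free RNA, the share was 0.180% of WT cells and 0 of 149 twi cells (which allows up to 2.01%), at median depths of 2017 and 2202 UMIs.

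Cd160 was likewise highest in T cells with NK receptors. It was at 203 CPM in WT and 319 CPM in twi cells, against 80.8 and 164 CPM in NK cells and 38.1 and 104 CPM in other T cells. The ratio to other T cells was 5.32 in WT and 3.06 (2.53 to 3.71) in twi, and the ratio to NK cells was 2.51 (1.26 to 5.20) and 1.94 (1.34 to 2.92). Cd160 was found in 47.2% of WT and 63.3% of twi cells, which became 28.6% and 25.9% after thinning, so that the libraries changed order. B cells held it in 0.541% and 2.01%.

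Xcl1 stood near NK cells in WT, below them in twi, and above other T cells taken as a whole in both. It was at 343 CPM in WT and 637 CPM in twi T cells with NK receptors, at 375 and 938 CPM in NK cells, and at 38.1 and 204 CPM in other T cells. The ratio to other T cells was 9.01 (5.36 to 15.5) in WT, or 26.8 (12.5 to 65.9) without the 1 other T cell that held 16 of 24 UMIs, and 3.13 (2.73 to 3.58) in twi. Against NK cells it was 0.915 (0.609 to 1.36) and 0.679 (0.571 to 0.811). In twi, 219 of the 509 Xcl1 UMIs of T cells with NK receptors lay in the 37 cells with Ncr1. An Xcl1 UMI was found in 50% of WT and 68.6% of twi cells (22.9% and 36.7% after thinning), against 0.721% and 1.34% of B cells.

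Gzmc was seen in the twi library and carried by very few cells. Of the twi T cells with NK receptors, 12 (7.10%) held 135 Gzmc UMIs in all, and 112 of these (83.0%) lay in 2 cells with 77 and 35 UMIs. Of the rest, 1 cell had 12 UMIs, 1 had 3 and 8 cells had 1 each. None of the 36 WT cells had a Gzmc UMI, which allows up to 3 UMIs in 128249. In twi NK cells 5 UMIs were found in 2 cells and in twi other T cells 52 UMIs in 13 cells. Of the 12 cells, 10 also had Xcl1, 9 had Cd160, 8 had Ikzf2, 8 had Gzmb and 5 had a Cd8 transcript. A level for Gzmc across the population would thus be the level of 2 cells.

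**Figure D3:**
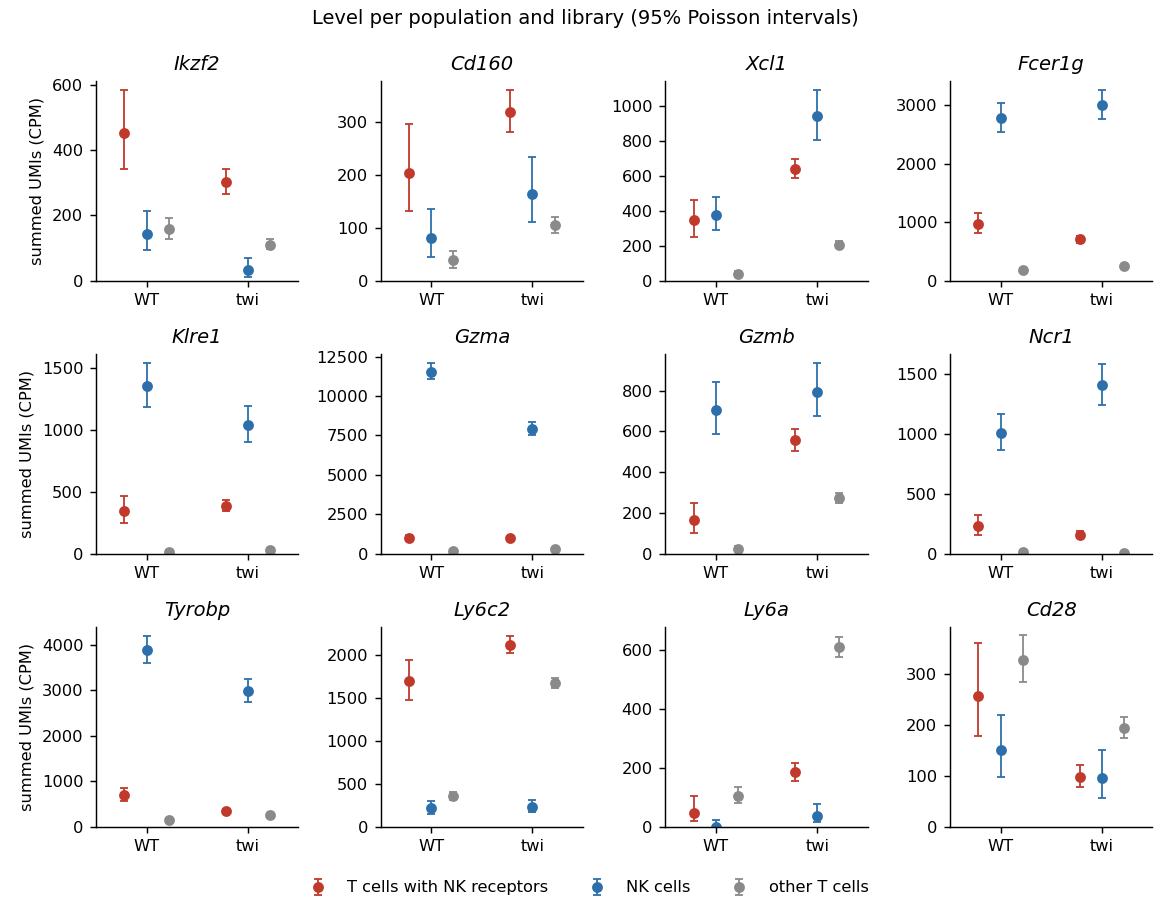
Summed UMIs of 12 genes in CPM (vertical axis, linear, starting at 0) in T cells with NK receptors (red), NK cells (blue) and other T cells (grey) of each library, with Poisson 95% intervals. Ikzf2 and Cd160 are highest in red in both libraries (452 and 303 CPM, 203 and 319 CPM), while Gzma, Ncr1, Tyrobp and Fcer1g are highest in NK cells.

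The Ikzf2, Cd160 and Xcl1 transcripts overlapped and did not part the cells into separate sets. In the twi library 79 cells (46.7%) had both Cd160 and Xcl1, 59 (34.9%) had both Cd160 and Ikzf2, and 56 (33.1%) had both Ikzf2 and Xcl1. All of Ikzf2, Cd160 and Xcl1 were found in 36 twi cells without Gzmc and in 7 with it. No transcript of the 4 genes was found in 17 twi cells (10.1%) and in 6 WT cells (16.7%). In WT, Cd160 and Ikzf2 were found together in 10 cells (27.8%), Cd160 and Xcl1 in 8, and Ikzf2 and Xcl1 in 7. Detection at this depth misses transcripts in most cells, so a cell without a UMI is not a cell without the gene.

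More than 1 in 2 T cells with NK receptors had no Cd8 transcript. Neither Cd8a nor Cd8b1 was found in 26 of 36 WT cells (72.2%, 54.8 to 85.8) and in 96 of 169 twi cells (56.8%, 49.0 to 64.4). In twi the share was 48.5% without the cells with Ncr1 and 47.4% of the 114 cells with Xist. Cd4, the gene of the helper T cell co-receptor, was found in 0 WT and 3 twi cells. Both Cd8a and Cd8b1, the chains of the conventional CD8 heterodimer, were found in 6 WT (16.7%) and 41 twi cells (24.3%, 18.0 to 31.4). Cd8a without Cd8b1 was found in 3 WT (8.33%) and 22 twi cells (13%, 8.34 to 19.0), and Cd8b1 alone in 1 and 10. Among other T cells the share with Cd8a alone was 0.469% in WT and 3.69% in twi, while both chains were found in 25.4% and 47.0% and Cd4 in 22.1% and 14.4%. In the twi library 8 B cells (5.37%) also had Cd8a alone, a background below the 13% of the T cells with NK receptors and above the 3.69% of other T cells. After thinning, Cd8a alone was found in 5.71% of WT and 9.04% of twi T cells with NK receptors, against 3.02% and 6.89% of other T cells, so that the gap narrowed. Likewise 80.0% of WT and 70.5% of twi T cells with NK receptors had neither transcript.

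The Cd8 make-up went with the other genes of the twi cells, which were looked at by class after their values were known. Ikzf2 was at 60.6 CPM in the 41 cells with both Cd8 chains, at 630 CPM in the 22 cells with Cd8a alone and at 522 CPM in the 64 cells with neither chain and no Ncr1. Fcer1g, the gene of the Fc receptor gamma chain that NK cells use as an adaptor, was also lowest with both chains, at 74.8, 586 and 682 CPM. Cd6, which encodes a T cell receptor that binds an adhesion molecule on other cells, ran the other way at 135, 86.9 and 47.5 CPM, as did Eomes, the gene of a transcription factor of memory CD8+ T and NK cells, at 92.7, 10.9 and 17.3 CPM. Median depth differed between the classes, at 6798, 4267 and 3670.5 UMIs, and its part in how cells fell into them was not tested.

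The 37 twi cells with an Ncr1 UMI, 5 of which also had a Cd8 transcript, made up a further class. They held Gzma, a granzyme gene, at 3334 CPM, against 78.4 CPM in cells with both Cd8 chains, 217 CPM with Cd8a alone and 453 CPM with neither chain and no Ncr1. Single cells carried much of these levels, among them 274 of the 601 UMIs in the Ncr1 class, and without the top cell of each class they were 1885, 22.5, 22.2 and 276 CPM. Tyrobp was at 1270 CPM, against 35.6, 97.7 and 121 CPM, and Xcl1 at 1215 CPM, against 278, 554 and 673 CPM. Their median Cd3d and Cd3e count was 2 UMIs, against 12, 6 and 4. Ikzf2 stood at 216 CPM in these cells. In WT, Ikzf2 had 0 UMIs in the 6 cells with both Cd8 chains, 947 CPM in the 18 cells with neither chain and no Ncr1 and 94 CPM in the 9 cells with Ncr1, where Gzma was at 3071 CPM with 40 of 98 UMIs in 1 cell. That cell was also 1 of the 3 WT cells with Cd8a alone and held all 40 of their Gzma UMIs, and 1 cell held 12 of the 13 UMIs in the cells with both chains and 10 of the 12 in those with neither chain and no Ncr1, so that no order of the WT classes is read from Gzma. Ikzf2 had 2 UMIs in the 3 WT cells with Cd8a alone.

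**Figure D4:**
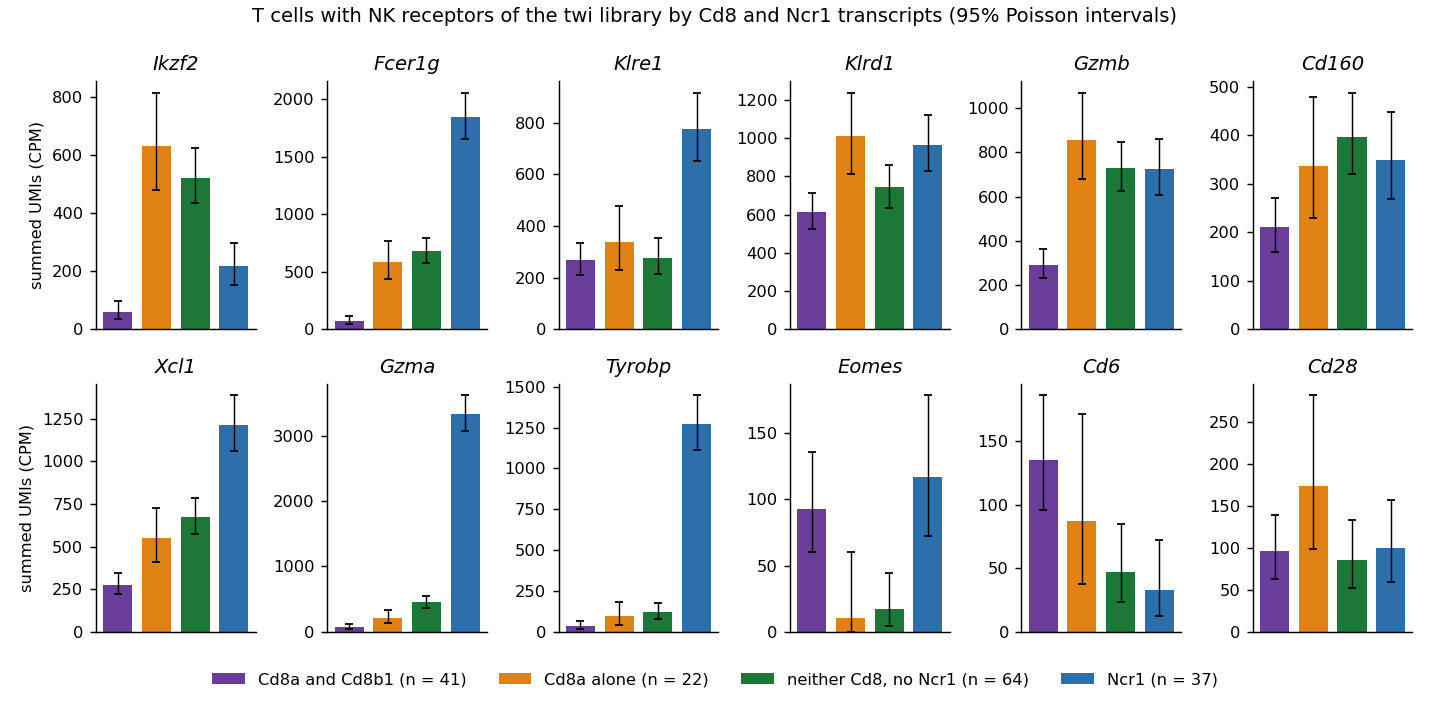
Summed UMIs of 12 genes in CPM (vertical axis, linear) in classes of the twi T cells with NK receptors, with Poisson 95% intervals. The Ncr1 class (37 cells, blue) shares 4 cells with the drawn Cd8 classes, 9 cells with Cd8b1 alone and no Ncr1 are not drawn, and Ikzf2 and Fcer1g stand lowest in the class with both Cd8 chains (60.6 and 74.8 CPM), while 1 cell gives 274 of the 601 UMIs in the blue Gzma bar.

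Other T cells of the same Cd8 class held about as much Ikzf2 and Xcl1 as the cells with both Cd8 chains, within counting error. Ikzf2 was at 60.6 CPM in the 41 twi cells and at 45.5 CPM in the 242 other T cells with both chains, a ratio of 1.33 (0.717 to 2.36). Cd160 was at 210 against 155 CPM, a ratio of 1.36 (0.99 to 1.84), and Xcl1 at 278 against 252 CPM, a ratio of 1.1 (0.847 to 1.43). Klre1, the gene of an NK receptor chain, was at 267 against 37.7 CPM, a ratio of 7.08 (4.75 to 10.7), and Eomes at 92.7 against 40.6 CPM, a ratio of 2.28 (1.34 to 3.81). Gzma (78.4 against 437 CPM, ratio 0.179, 0.111 to 0.275), Ccl5 (3450 against 6756 CPM, ratio 0.511) and the interferon-stimulated Isg15 (225 against 530 CPM, ratio 0.423, 0.321 to 0.55) were lower in twi. In WT, with 6 against 54 cells, these ratios ran the other way, at 2.79 (1.34 to 5.52) for Gzma, with 12 of 13 UMIs in 1 cell, 2.67 (2.23 to 3.20) for Ccl5 and 12.9 (6.72 to 25.8) for Isg15, with all 30 UMIs in 1 cell.

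The cells with neither chain differed more. In twi the 96 cells held Ikzf2 at 395 CPM against 196 CPM in the 212 other T cells with neither chain, a ratio of 2.02 (1.58 to 2.57). Cd160 was at 385 against 28.9 CPM, a ratio of 13.3 (8.24 to 22.8), Xcl1 at 922 against 138 CPM, a ratio of 6.67 (5.28 to 8.49), and Gzmb at 723 against 119 CPM, a ratio of 6.10. Some of the 96 cells had Ncr1, and in the 64 without it Xcl1 was at 673 CPM. The costimulatory receptor gene Cd28 and the T cell receptor modulator gene Cd5 were lower in twi, with ratios of 0.322 and 0.240. Their WT ratios were 0.747 (0.452 to 1.18) and 0.473 (0.122 to 1.32), so both intervals held equal levels. In WT (26 against 125 cells) the ratios were 2.63 (1.84 to 3.74) for Ikzf2, 6.90 for Cd160 and 10.9 for Xcl1. Cells with Cd4 fall into the same class of other T cells, which the T cells with NK receptors nearly lacked. Among twi cells with Cd8a alone (22 against 19 cells) the Ikzf2 ratio was 1.89 (1.16 to 3.15). Cd160 had a ratio of 2.29 there, Xcl1 of 1.97 and Gzmb of 5.35. Cd28 was higher in that class, with a ratio of 3.25 (1.05 to 13.4).

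Compared with NK cells as a whole, T cells with NK receptors carried less of the NK cell transcripts and, in all cells together, more of the T cell transcripts. With at least 20 UMIs over both populations as the minimum, 5121 genes could be compared in twi, of which 5.57% were at least 2-fold higher and 7.54% at least 2-fold lower in the T cells (3.72% and 11.8% of 2098 genes in WT). Of 13 T cell identity genes outside the rule, 7 were at least 2-fold higher and none lower in twi, with a median log2 ratio of 1.07 against -0.12 over all genes compared. Among cells with Y-linked transcripts and no Xist, 17 of them T cells with NK receptors, that median was -0.32. In WT 3 of 9 were higher, with a median of 0.49. The twi examples were Lat, the gene of an adaptor of T cell receptor signalling (253 against 63.6 CPM, ratio 3.98, 2.23 to 7.82), and Thy1 (885 against 419 CPM, ratio 2.11, 1.67 to 2.70). Cd3g was absent from NK cells by their definition. All 14 NK cell identity genes compared in twi were at least 2-fold lower, with a median of -2.45, as were 12 of 13 in WT with a median of -2.13. Ncr1 was at 158 against 1405 CPM (ratio 0.112, 0.0901 to 0.139), Tyrobp at 347 against 2984 CPM (ratio 0.116, 0.100 to 0.134), Fcer1g at 705 against 3000 CPM (ratio 0.235) and Irf8, a transcription factor gene, at 43.8 against 387 CPM (ratio 0.113).

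Several genes of killing and of chemokines, though not all, also stood below NK cells. Of 14 cytotoxic granule genes in twi, 2 were at least 2-fold higher and 4 lower, with a median log2 ratio of -0.60. Over all genes compared in twi 5.57% were higher and 7.54% lower. Of 11 in WT none was higher and 8 were lower, against 3.72% and 11.8% of all genes compared, with a median of -1.91. Gzma was at 977 CPM in twi T cells with NK receptors and at 7930 CPM in NK cells, a ratio of 0.123 (0.113 to 0.134), or 0.0806 without the 1 cell with most Gzma, with 0.0830 in WT. The pore-forming protein gene Prf1 was at 25.1 against 133 CPM (ratio 0.189, 0.0995 to 0.354). Gzmb came closer in twi, at 555 against 795 CPM (ratio 0.698, 0.579 to 0.845), than in WT, at 164 against 704 CPM (ratio 0.233, 0.139 to 0.372). In WT 3 of 7 chemokine and cytokine genes were at least 2-fold lower and 1 higher. Of 8 such genes in twi 4 were lower and none higher, among them Ccl3 at 68.9 against 816 CPM (ratio 0.0844). Ccl5 was at 5795 against 14137 CPM (ratio 0.410).

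Among the genes with the largest ratios over NK cells in twi, beside Cd8a, Cd8b1 and Ikzf2, were the interferon-stimulated Ifi27l2a (ratio 23.7, and 31.1 in WT, or 20.2 without the 1 WT cell with 18 of 46 UMIs), the Ly6C genes Ly6c1 (ratio 13.4, and 14.4 in WT) and Ly6c2 (2123 against 228 CPM, ratio 9.31, and 7.96 in WT), Plac8 (247 against 21.2 CPM, ratio 11.6, and 4.73 in WT, or 2.88 without the 1 WT cell with 9 of 21 UMIs) and the chemokine receptor gene Cxcr6 (475 against 84.8 CPM, ratio 5.60). Ly6C marks antigen-experienced and memory CD8+ T cells.

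Compared with all other T cells, several NK receptor and cytotoxic genes were higher, though not each of them among cells with both Cd8 chains. In twi 2.04% of 7900 genes compared were at least 2-fold higher and 6.42% lower (6.4% and 8.61% of 4159 genes in WT). Of 10 genes of NKG2 and other NK receptors, none of them in the rule, 6 were higher and none lower in twi, with a median log2 ratio of 1.53 against -0.02 over all genes. In WT 4 of 5 were higher, with a median of 2.41. Klre1 was at 383 against 28.6 CPM (ratio 13.4, 10.0 to 18.2, and 27.0 in WT), Klrk1, the gene of NKG2D, at 418 against 111 CPM (ratio 3.78, and 8.5 in WT) and Klrc1, the gene of the inhibitory receptor NKG2A, at 336 against 99.0 CPM (ratio 3.39, and 20.7 in WT). Among twi cells with both Cd8 chains, Klrk1 was at 107 against 153 CPM (ratio 0.699, 0.457 to 1.038). Klrd1, the gene of CD94 that pairs with NKG2A, had a ratio of 2.74 and of 4.70 in WT. NK cell identity genes had a median of 2.5 in twi, with 9 of 12 higher. That median was 0.58 when the 37 cells with Ncr1 were left out. Since Ncr1 is itself on the list, part of that fall was fixed by leaving those cells out.

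Of 15 cytotoxic granule genes, 7 were at least 2-fold higher and 1 lower in twi than in other T cells, with a median log2 ratio of 0.81. Over all genes compared in twi 2.04% were higher and 6.42% lower. Of 8 in WT 5 were higher and none lower, against 6.4% and 8.61% of all genes compared, with a median of 1.86. Gzma was at 977 against 267 CPM, a ratio of 3.66 (3.27 to 4.10), which came to 1.08 without the cells with Ncr1 and to 1.28 with cells of at least 2 Cd3 UMIs. Among cells with neither Cd8 chain and no Ncr1 it was at 453 CPM, against 71.5 CPM in other T cells with neither chain. Over all cells, the twi ratio of 3.66 became 2.39 (2.11 to 2.71) without the 1 cell with most Gzma. Gzmb was at 555 against 270 CPM (ratio 2.05, 1.80 to 2.34), and at 164 against 23.8 CPM (ratio 6.88, 3.38 to 14.3) in WT. Among twi cells with both Cd8 chains it was lower, at 292 against 401 CPM (ratio 0.729, 0.568 to 0.926). Il2rb, the gene of the receptor chain that takes up interleukin-15 signals, had a ratio of 2.19 in twi and 5.83 in WT. Ccl5 was at 5795 against 4604 CPM in twi (ratio 1.26, 1.21 to 1.30) and at 8772 against 1195 CPM in WT (ratio 7.34, 6.69 to 8.06). Fcer1g had a ratio of 2.83 in twi and 5.69 in WT. Other T cells also held myeloid transcripts, at 2500 CPM over the list in twi against 159 CPM in T cells with NK receptors, with Lyz2 giving 3736 of their 4721 UMIs, and without the other T cells that had any myeloid UMI the Fcer1g ratio in twi was 13.6.

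Genes lower than in other T cells included those of the gamma-delta and interleukin-17 type, of naive cells and of a checkpoint and regulatory list. Of 10 checkpoint and regulatory genes in twi, 5 were at least 2-fold lower and 2 higher, with a median log2 ratio of -0.78. Over all genes compared 6.42% were lower and 2.04% higher. In WT 2 of 4 were lower and 1 higher. Cd160, which was higher in T cells with NK receptors, is on that list. All 4 gamma-delta and interleukin-17 type genes compared in twi were at least 2-fold lower, against 6.42% of all genes compared, with a median log2 ratio of -2.11. In WT 2 genes of that type could be compared, with 1 at least 2-fold lower and 1 above 0. In twi Cd163l1 was at 48.8 against 183 CPM (ratio 0.267, 0.187 to 0.373). Among cells with both Cd8 chains, which held 31 of the 39 Cd163l1 UMIs, it ran the other way, at 110 against 27.1 CPM (ratio 4.08, 2.37 to 7.05). Recirculation and naive genes had a median of -0.67, with the lymph node homing receptor gene Ccr7 at 20 against 169 CPM (ratio 0.119, 0.0670 to 0.196). The integrin gene Itgae, a marker of residence in epithelia, was at 8.77 against 37.1 CPM (ratio 0.236). The 9 tissue residence genes compared went both ways, with 5 above 0 and 4 below. Of these 2 were at least 2-fold lower and none higher, with a median of 0.10. Ly6a, an interferon-stimulated gene that encodes Sca-1, was at 184 against 608 CPM (ratio 0.303, 0.253 to 0.360). The erythroid list was at 728 against 4821 CPM, but 7641 of the 9103 UMIs (83.9%) in other T cells lay in 1 cell, without which the ratio was 0.936 (0.848 to 1.03). Ifitm3 was at 65.1 against 301 CPM (ratio 0.216), but at a ratio of 1.5 against the other T cells with no myeloid UMI.

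Between genotypes, T cells with NK receptors of the twi library held more Gzmb, Cxcr6, Ly6a and Ly6c1 and less Nr4a2, Cd28 and Dusp1 than those of the WT library when all cells were taken. Among cells with Y-linked transcripts and no Xist (14 WT and 17 twi) the ratios of Ly6a and Ly6c1 turned to 0.188 and 0.0314 and that of Cd28 was 1.03. In the same cells Cxcr6 was at 194 CPM (96.8 to 347) in WT and 226 CPM (131 to 361) in twi. Gzmb was there at 141 CPM (60.9 to 278) and 252 CPM (152 to 394), so the intervals of both genes overlapped. Of 4838 genes compared, 8.72% were at least 2-fold higher and 4.77% lower in twi. Gzmb was at 164 CPM in WT and 555 CPM in twi (ratio 3.39, 2.19 to 5.53), Cxcr6 at 125 and 475 CPM (ratio 3.80, 2.31 to 6.72), Ly6a at 46.8 and 184 CPM (ratio 3.93, 1.77 to 10.9) and Ly6c1 at 250 and 779 CPM (ratio 3.12, 2.19 to 4.60, or 4.68 without the 1 WT cell that held 12 of 32 UMIs). Psmb9, which encodes a subunit of the immunoproteasome, had a ratio of 2.32. Nkg7 (2214 and 2399 CPM) and Cd8b1 (351 and 372 CPM) had nearly the same level in both libraries. Gzma was at 959 and 977 CPM, but at 639 CPM in twi (ratio 0.666, 0.546 to 0.818) without the 1 cell that held 274 of its 780 UMIs. Of 14 cytotoxic granule genes 5 were at least 2-fold higher in twi and none lower, with a median log2 ratio of 0.25 against -0.02 over all genes, which turned to -0.21 when the cells were chosen after thinning.

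Xcl1 was at 343 CPM in WT and 637 CPM in twi, a ratio of 1.86 (1.36 to 2.59), and Cd160 had a ratio of 1.58 (1.05 to 2.46). Ikzf2 was at 452 CPM in WT and 303 CPM in twi, a ratio of 0.670 (0.501 to 0.909), but 1 WT cell held 13 of 58 UMIs and without it the ratio was 0.839 (0.608 to 1.18). Xcl1 was also higher in twi NK cells (ratio 2.5, 1.87 to 3.38) and twi other T cells (ratio 5.35, 3.54 to 8.46, or 15.9 without the 1 WT cell that held 16 of 24 UMIs), and Gzmb had ratios of 1.13 (0.883 to 1.45) and 11.3 (6.81 to 20.4) there. Whether the genotypes differed more in 1 population than in another was not tested.

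Genes lower in twi came from several groups. Nr4a2, an immediate early transcription factor gene, was at 226 CPM in WT and 42.6 CPM in twi (ratio 0.188, 0.111 to 0.320), and Dusp1, a phosphatase gene of early stimulation, at 834 and 331 CPM (ratio 0.396, 0.315 to 0.501). Of 12 immediate early and heat shock genes, 5 were at least 2-fold lower, against 4.77% of all genes compared. Of the 12, 11 were below 0, with a median log2 ratio of -0.87. In other T cells 13 of 13 were below 0 (median -0.60), and in NK cells 8 of 12 (median -0.26). Such genes are known to respond to cell isolation, and their part in the difference was not tested. Cd28 was at 257 and 97.7 CPM (ratio 0.38, 0.25 to 0.589). Klf2, a transcription factor gene of naive and circulating T cells, was at 1505 and 833 CPM (ratio 0.553, 0.471 to 0.653), and the 9 recirculation and naive genes had a median of -0.77. That list had a median of -1.17 over 11 genes in other T cells and of -0.70 over 6 genes in NK cells. Tyrobp had a ratio of 0.506 and Eomes of 0.446. The Eomes ratio rested on few WT UMIs, with 11 in the 26 WT cells with neither Cd8 chain and 1 in the 6 with both. A further 6 lay in 33.3% of the 3 WT cells with Cd8a alone. Neutrophil transcripts were also lower, at 1232 CPM in WT and 388 CPM in twi, with S100a8 most abundant and Elane at 0. The same list was at 1235 and 371 CPM in NK cells and at 1522 and 467 CPM in other T cells. Erythroid transcripts were at 1536 and 728 CPM, against 1587 and 758 CPM in NK cells. Their median share per cell also fell in other T cells (0.150% and 0.0745%) and B cells (0.148% and 0.0848%). These drops were thus not particular to T cells with NK receptors. B cell transcripts came to 14 and 28 UMIs with Pax5 at 0.

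The interferon-stimulated genes depended on 1 WT cell. Over their list, 31 genes could be compared, of which 5 were at least 2-fold higher in twi and none lower, against 8.72% and 4.77% of all genes compared, with a median log2 ratio of 0.39. In WT 217 of the 504 UMIs of the list (43.1%) came from 1 cell with both Cd8 chains, which held 30 of 34 Isg15 and 16 of 17 Ifit3 UMIs. Isg15 was at 265 CPM in both libraries with that cell. Without it the median over the list was 1.33. Among cells with Y-linked transcripts and no Xist the median was -0.62 with that WT cell and 0.29 without it. Per cell, the median share of UMIs in the list was 0.211% in WT and 0.404% in twi T cells with NK receptors, against 0.185% and 0.266% in NK cells, 0.259% and 0.555% in other T cells and 0.198% and 0.211% in B cells. In NK cells 10 of 18 genes of the list were at least 2-fold higher in twi and 1 lower, against 3.17% and 3.98% of all genes compared, with a median log2 ratio of 1.14. In other T cells 27 of 39 were higher and none lower, against 6.93% and 3.2% of all genes compared, with a median of 1.29. Within the twi library, the list was lower in T cells with NK receptors than in other T cells for 36 of 39 genes, with 6 at least 2-fold lower and none higher, against 6.42% and 2.04% of all genes compared, and a median of -0.31. In WT, with the 1 cell included, 9 of 24 were at least 2-fold higher and 1 lower, against 6.4% and 8.61%, with a median of 0.71.

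Cells with Xist and cells with Y-linked transcripts were both present in the twi library, and these transcripts moved with several of the results. Xist, which is transcribed in female cells, was found in 0 of 36 WT (which allows up to 8.33%) and in 119 of 169 twi T cells with NK receptors (70.4%), against 40.4% of twi NK cells, 48.5% of other T cells and 33.6% of B cells. Of the 548 twi cells with Xist and no Y-linked transcript, 114 (20.8%, 17.5 to 24.4) were T cells with NK receptors, and of the 207 with a Y-linked transcript and no Xist, 17 (8.21%, 4.86 to 12.8). Other T cells were 44.0% and 44.9% of the same cells. In WT the share was 14 of 487 cells with a Y-linked transcript (2.87%, 1.58 to 4.78), so that the ratio of twi to WT among these cells was 2.86 (1.33 to 6.26).

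Ly6a was at 212 CPM in twi T cells with NK receptors that had Xist and at 13.3 CPM (1 UMI) in the 17 that had a Y-linked transcript, and Ly6c1 was at 847 and 13.3 CPM (1 UMI). In the 14 WT cells with a Y-linked transcript they were at 70.5 and 423 CPM. Cxcr6 was at 520 and 226 CPM, and Gzmb at 579 and 252 CPM, against 194 and 141 CPM in those WT cells. Cd28 was at 92.7 and 199 CPM, close to the 194 CPM of WT in the cells with a Y-linked transcript. Gzma, at 586 and 4938 CPM, was higher in the cells with a Y-linked transcript, of which 41.2% had Ncr1 against 20.2% of those with Xist. That level lay in 4 of the 17 cells, with 274 of 372 UMIs in 1 cell, and came to 1429 CPM without it, and the share of cells with Gzma was 23.5% against 27.2% of those with Xist. The median share of UMIs in interferon-stimulated genes was 0.422% and 0.252%, against 0.256% in the WT cells with a Y-linked transcript. Sex and the animal a cell came from cannot be told apart, since cells of the pooled animals carry no mark of their own. All genotype ratios taken over all cells, among them those of Ly6a, Ly6c1, Cxcr6, Gzmb, Cd28 and the interferon list, thus compared unlike cells. These were largely female in the twi library and without Xist in the WT library.

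**Figure D5:**
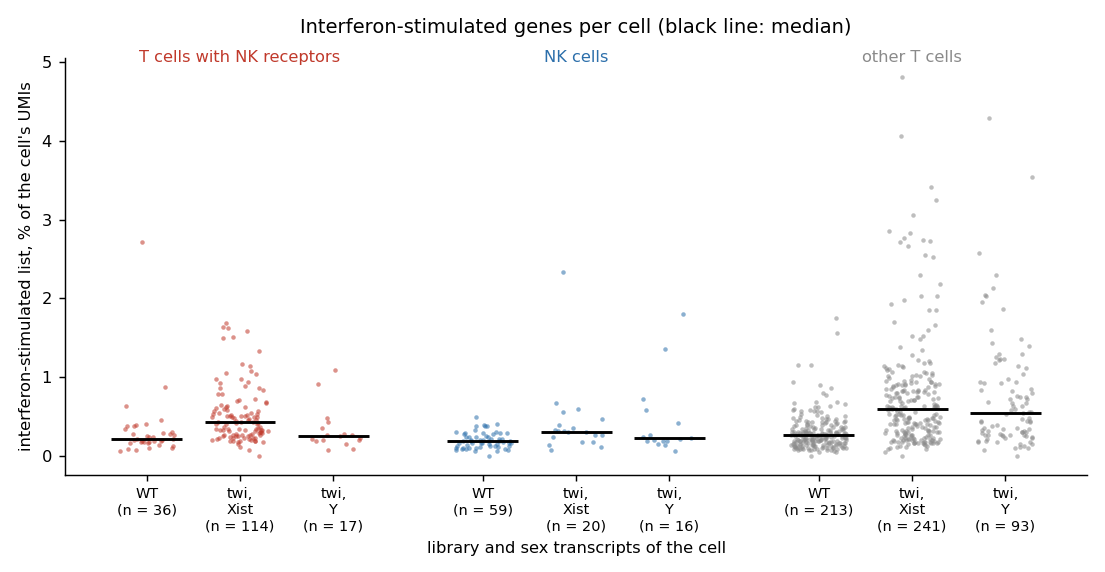
Share of each cell's UMIs in the interferon-stimulated list (vertical axis, %) for T cells with NK receptors (red), NK cells (blue) and other T cells (grey) in WT and in twi cells with Xist or with a Y-linked transcript, with 1 point per cell and the median as a black line. A single WT T cell with NK receptors stands at 2.72%, and the medians of the red groups are 0.211%, 0.422% and 0.252%.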

How the data were processed

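Single-cell 3′ RNA libraries of CD45+ brain cells, 1 per genotype, were used as the UMI counts per gene and barcode that the authors deposited. The submitters' processing notes name Cell Ranger 2.1.1 and mm10, and the study's methods describe alignment with STAR, a mapping quality filter, barcode whitelisting and a UMI threshold for cells. Counts were not normalized. T cell receptor and immunoglobulin constant genes were not analysed here, nor were a few withheld genes.

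Cells of each population were summed per library and given as CPM, with exact intervals computed in Python 3.11.15 (numpy 2.4.6, scipy 1.17.1). Ratios were those of CPM, and log2 ratios used a pseudocount of 0.5 UMIs. A gene was compared with at least 20 UMIs over both populations and counted past 2-fold, with no p-value. Scripts were tested on simulated data. No doublet caller was run. Genes were named where they belonged to a list or had 1 of the 10 highest or lowest ratios, given 100 CPM on average over both populations and 25 UMIs from 5 cells, and the classes by Cd8 and Ncr1 and a few further genes were chosen after their values were seen. The members and lists were chosen with earlier results of these data known. Alternatives changed the limits of the rule, the depth, the weight of cells, the minimum, the pseudocount and the sex transcripts.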

Additional observations from a re-analysis of the deposited data

How the results depend on the processing

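No paired analysis was possible because a genotype had a single library, and for the same reason no replicate could be left out. Of 50 values, 32 were gene or list level ratios, and of their 360 values under alternatives 6 reversed and 83 lay outside the interval of the value reported. Of 260 other values under alternatives, 235 stayed inside it, 23 lay outside and 2 reversed. Restricting to cells with Y-linked transcripts and no Xist (14 WT and 17 twi T cells with NK receptors) gave a share ratio of 2.86, twi over WT ratios of 1.03 for Cd28, 0.188 for Ly6a and 0.0314 for Ly6c1, a Klra4 ratio to NK cells of 1.52, and list medians of -0.62 for interferon in twi over WT, -0.85 for interferon over other T cells, -0.32 for T cell and -1.29 for NK cell identity over NK cells. Cxcr6 was then at 194 CPM in WT and 226 CPM in twi, and Gzmb at 141 and 252 CPM. Ikzf2 and Xcl1 were then found in 58.8%, Cd160 in 35.3% and neither Cd8 in 76.5% of twi cells.

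Applying the rule after thinning to 1000 UMIs (15 WT and 71 twi cells) gave medians of -0.21 for cytotoxic and 1.16 for interferon genes in twi over WT and -0.058 for interferon over other T cells, with Cd160 in 33.8%, Xcl1 in 43.7% and neither Cd8 in 80.3% of twi and 93.3% of WT cells. The interferon median in twi over WT was 1.26 with at least 3 receptor UMIs, 1.42 without the top 5% of cells by UMIs and 0.96 with each cell weighing the same. Without Ncr1 cells, NK cell identity medians were -3.69 over NK and 0.58 over other T cells, and neither Cd8 was found in 48.5%. Ncr1 is on that identity list, so both medians were in part fixed by this choice. Without Klrb1c in the rule, Ikzf2 was found in 54.8%. The denominator of cells with Cd3d or Cd3e or with 2 receptor UMIs gave the share ratio of 2.20. Of 5 alternatives chosen after seeing the data, leaving out 1 WT cell gave an interferon median of 1.33 (0.29 among cells with Y-linked transcripts, where the -0.62 above includes it), and other T cells with under 3 or with no myeloid UMI gave Ifitm3 ratios of 1.26 and 1.5. Leaving out the cell with most UMIs moved 8 of the 11 ratios it was tried on outside their intervals, and took Gzma in twi over WT from 1.02 to below 1, at 0.666. Depth limits every WT value, since 36 cells held 128249 UMIs.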

Other observations

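The twi library also held 12 cells that met every limit of the rule but the one on cycling transcripts, and the WT library held none. Taking them in brought the twi cells to 181. The limit on B cell transcripts kept out 2 WT and 5 twi cells that met the rest, and the limit on neutrophil transcripts kept out 1 twi cell.

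Gzmc outside the T cells with NK receptors was found in 28 further twi cells with 210 UMIs and in 1 WT cell with 1 UMI. Of the 12 twi T cells with NK receptors that had Gzmc, 9 had Xist, 4 had Ncr1 and 2 had Itgae.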
